A study of Mus musculus with 6 samples.

Results

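The interleukin 1 and 18 system was followed through 10 genes, chosen by symbol: the ligands Il1a, Il1b and Il18, the antagonist Il1rn, the receptor genes Il1r2, Il1rap, Il18r1 and Il18rap, and the inflammasome genes Nlrp3 and Casp1. All 10 were among the 20591 gene symbols of the expression table. The RNA came from B cells that had been isolated by sorting from mouse colon, after the mice had received either lenvatinib (3 libraries), an inhibitor of receptor tyrosine kinases such as those for VEGF and FGF, or DMSO (3 libraries), its solvent. Replicates are called biological in the labels, but separate mice are not mentioned, so a p-value here reflects library-to-library spread that may be technical. The mouse strain, age, dose, duration and sorting markers are not given here, and although the series title concerns colitis, no label states an inflammatory state for either group.

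Interleukin 1 alpha and beta are related cytokines that act on the same receptor, which signals through the adaptor MyD88 to NF-kB. Interleukin 1 beta and interleukin 18 are made as precursors that caspase-1 cuts after an inflammasome, such as the one built on NLRP3, has assembled, so mRNA levels do not measure the active cytokines. In the gut these cytokines are known as products of myeloid and epithelial cells that act on lymphocytes and on the epithelium.

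In the lenvatinib libraries both interleukin 1 ligands rose, Il1a to 3.11 and Il1b to 1.57 times the DMSO mean, and the third ligand, Il18, overlapped between the groups. The inflammasome sensor Nlrp3 rose as well, to 1.82 times, while Casp1 was at 0.862 times its DMSO mean. The genes of both chains of the interleukin 18 receptor stood at 2.07 and 4.35 times their DMSO means, from levels too low for the main test. Both inhibitory genes among the members of the interleukin 1 arm rose, Il1rn to 1.4 and Il1r2 to 1.32 times. Of the 6 members that could be tested, 5 passed in the upward direction, where 10.4 percent of all tested genes did, and 1 in the downward direction, where 8.21 percent did (limma adjusted p threshold of 0.05, passed by 18.7 percent in either direction). All lenvatinib libraries lay above all DMSO libraries for these 5 and below them for Casp1, as for 18.9 and 18.2 percent of tested genes, 37.1 percent in either direction. The members were chosen with earlier results of these data known, so these shares are a description and not a test of the set. In sorted cells that were sequenced in bulk, a change in the number of cells of one type and a change in RNA per cell cannot be told apart.

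The stretches of 250 bases before the transcription starts of the 3 ligand genes are shown because Il1a and Il1b, which lie next to each other, rose together, whereas Il18 overlapped between the groups. They are RefSeq sequences of build GRCm38.p6, which is not the build of the authors' counting, at chr2:129309973-129310222 on the minus strand, chr2:129371140-129371389 on the minus strand and chr9:50554450-50554699 on the plus strand. They are written 5′ to 3′, with matches to the searched motifs in capitals.
Il1a: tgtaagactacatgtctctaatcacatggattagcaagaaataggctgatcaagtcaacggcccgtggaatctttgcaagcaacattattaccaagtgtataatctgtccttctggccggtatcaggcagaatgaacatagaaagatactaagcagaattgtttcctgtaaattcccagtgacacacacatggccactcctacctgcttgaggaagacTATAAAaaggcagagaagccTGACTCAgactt
Il1b: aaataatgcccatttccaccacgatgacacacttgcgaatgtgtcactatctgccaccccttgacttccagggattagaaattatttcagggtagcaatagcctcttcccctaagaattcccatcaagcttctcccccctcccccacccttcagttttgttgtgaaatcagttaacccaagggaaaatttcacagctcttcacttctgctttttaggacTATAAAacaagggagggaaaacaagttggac
Il18: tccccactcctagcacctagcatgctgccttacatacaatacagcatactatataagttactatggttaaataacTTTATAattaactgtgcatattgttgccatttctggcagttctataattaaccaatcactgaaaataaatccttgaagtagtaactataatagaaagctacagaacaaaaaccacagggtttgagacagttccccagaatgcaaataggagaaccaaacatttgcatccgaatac
The searched motifs, on both strands, were GGGA, NN and TTCC in a row for NF-kB, TTGCNNAA for C/EBP, GAGGAAGT for PU.1, TGANTCA for AP-1, GAAA, NN and GAAA in a row for interferon regulatory factors, and TATAAA for the TATA box, with N for any base. Il1a and Il1b each held TATAAA close to the start, its first base at position -32 in Il1a and -31 in Il1b, and Il18 held it in the other orientation at -175. Of 32851 promoters of this length, 12.4 percent held TATAAA. Il1a also held an AP-1 match at -12, a motif that 6.75 percent of promoters held, and none of the printed matches overlapped another. All 10 members matched a promoter, 15 promoters in all. Among those not printed, 1 of 3 promoters of Il1rn held an AP-1 match at -141 and that of Il18rap a PU.1 match at -79, motifs held by 6.75 and 2.44 percent of promoters. No match to the NF-kB letters, held by 1.21 percent of promoters, was found in these windows. A match describes the letters only.

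Levels are given as scaled FPKM, reads relative to gene length and to the library's counted reads, after a small correction between libraries, so levels of different genes can be compared. Log2 changes are on the log2(scaled FPKM + 1) scale, which understates the change of genes with low levels, and SDs are over n = 3 libraries. The libraries held between 26635279 and 31655500 counted reads, and every member had reads in all 6 libraries. Each of the 6 tested members had a level of at least 1 in all 6 libraries, so none was tested on the strength of one group alone. The other 4 members, Il18, Il1rap, Il18r1 and Il18rap, fell short of the required level of 1 in at least 3 libraries.

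**Figure D1:**
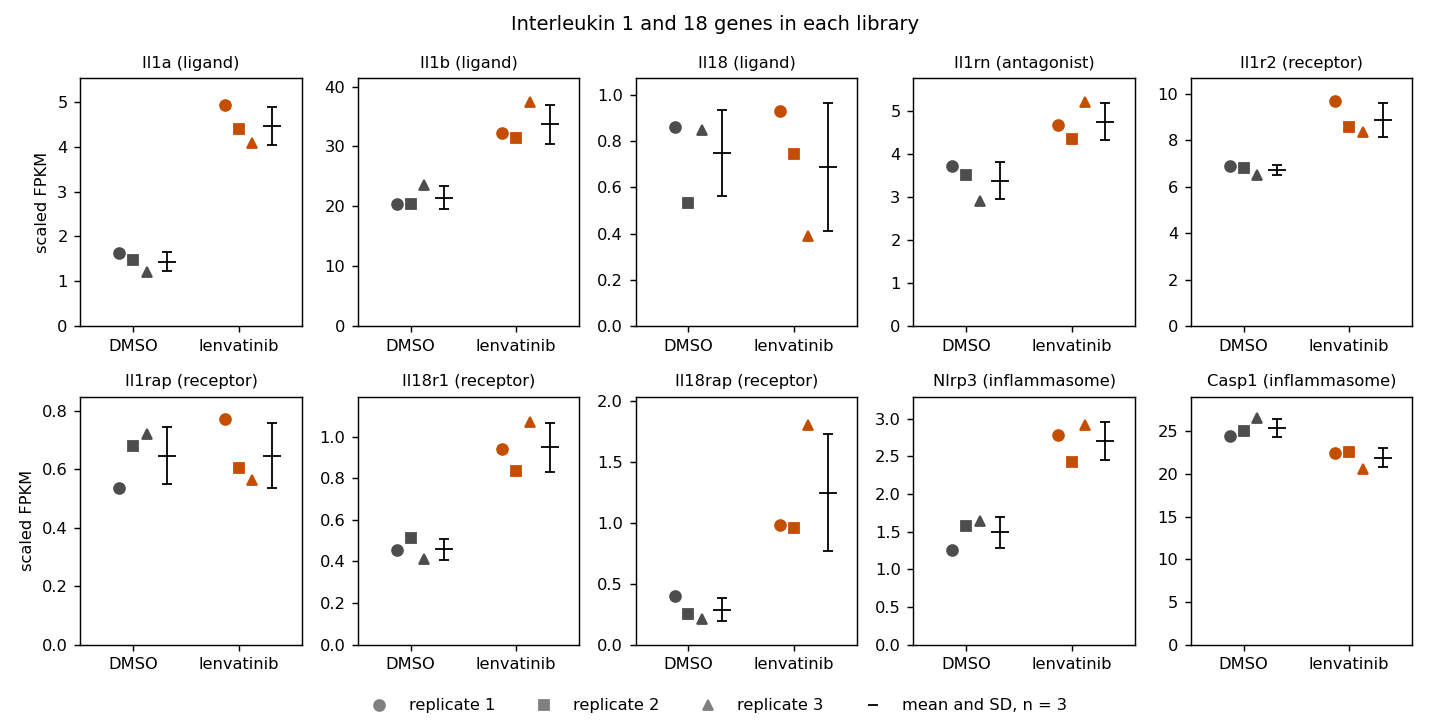
Scaled FPKM of the 10 members in each library, with the mean and SD of each group (n = 3) and a linear axis from 0 for each gene. The lenvatinib libraries lie above the DMSO libraries for 7 genes and below them for Casp1, and the groups overlap for Il18 and Il1rap. Among all genes with any value, 13.5 percent were higher and 10.9 percent lower in this way.

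Il1a encodes interleukin 1 alpha, which is active without cleavage by caspase-1 and is known as an alarm signal of damaged cells. Its level was 1.63, 1.48 and 1.2 in the DMSO libraries and 4.93, 4.4 and 4.08 in the lenvatinib libraries. These levels rest on 71 to 91 reads per DMSO library and 223 to 310 per lenvatinib library. The groups did not overlap, and the lowest lenvatinib library was well above the highest DMSO library. The log2 change was 1.17 (SE 0.112, limma adjusted p = 0.000129), the largest among the tested members.

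Il1b encodes interleukin 1 beta, the form released after inflammasome activation. Its level was 20.4, 20.3 and 23.6 with DMSO and 32.3, 31.4 and 37.4 with lenvatinib, from 1016 to 1955 reads per library. The third library of each group was the highest of its group, and the groups did not overlap. The log2 change was 0.63 (SE 0.0804, limma adjusted p = 0.00068). Il1b was the more abundant of the ligands in every library, and 89.0 percent of the genes in the table had a lower mean level.

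Il18 encodes interleukin 18, which drives interferon gamma production by T and natural killer cells. Its level was 0.861, 0.534 and 0.848 with DMSO and 0.932, 0.742 and 0.39 with lenvatinib. The highest and the lowest library both belonged to the lenvatinib group. There were 28 to 77 reads per library, and the log2 difference in limma without a filter on low values was -0.06 (SE 0.154, adjusted p = 0.865).

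Among the genes that restrain interleukin 1, Il1rn encodes the receptor antagonist, which occupies the receptor without signalling. It was at 3.73, 3.52 and 2.91 with DMSO and at 4.68, 4.36 and 5.22 with lenvatinib. The groups did not overlap, though the gap between the nearest libraries was smaller than that for either interleukin 1 ligand relative to its level. The log2 change was 0.39 (SE 0.105, limma adjusted p = 0.0304). This call did not survive leaving out DMSO replicate 2 or 3 or lenvatinib replicate 1 or 3 (limma adjusted p = 0.0592, 0.0944, 0.0706 and 0.093), nor testing without a filter on low values (limma adjusted p = 0.0785).

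Il1r2 encodes the decoy receptor, which binds interleukin 1 without passing a signal on. Its level was 6.89, 6.81 and 6.5 with DMSO and 9.72, 8.56 and 8.35 with lenvatinib. The DMSO libraries lay close together and all lenvatinib libraries lay above them, with the first highest. The log2 change was 0.35 (SE 0.0779, limma adjusted p = 0.0137), and the call held when any single library was left out (limma adjusted p from 0.0209 to 0.0489). Il1rap encodes the accessory chain that the signalling receptor needs, and its level was 0.536, 0.68 and 0.722 with DMSO and 0.773, 0.603 and 0.563 with lenvatinib. The ranges covered each other almost fully and both means were 0.646. Its log2 difference in limma without a filter on low values was 0 (SE 0.103, adjusted p = 1).

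The interleukin 18 receptor pairs a binding chain, encoded by Il18r1, with an accessory chain, encoded by Il18rap, and is known from T and natural killer cells. Il18r1 was at 0.453, 0.512 and 0.412 with DMSO and at 0.942, 0.836 and 1.07 with lenvatinib. Il18rap was at 0.394, 0.251 and 0.213 with DMSO and at 0.979, 0.956 and 1.8 with lenvatinib. Both genes were higher in every lenvatinib library than in any DMSO library, and the third lenvatinib library stood well above the other two for Il18rap. Among genes with any value, 13.5 percent had all lenvatinib libraries above all DMSO libraries.

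As long genes, these receptors had more reads than their FPKM conveys, 61 to 153 per library for Il18r1 and 32 to 249 for Il18rap. The same held for Il1rap, with 189 to 329 reads per library over a recovered gene length of 13345 bases. A fit of the reads themselves, with a filter of at least 10 reads in at least 3 libraries, was therefore added after the data had been seen. It covered all 10 members, with 1388 of its 13359 genes (10.4 percent) called higher and 1204 (9.01 percent) lower. In it Il18rap changed by 2.1 on the log2 scale (SE 0.425, limma-voom adjusted p = 0.000199) and Il18r1 by 1.04 (SE 0.326, limma-voom adjusted p = 0.0185). On the FPKM scale without a filter the log2 changes were 0.79 (SE 0.163, limma adjusted p = 0.039) for Il18rap and 0.42 (SE 0.0962, limma adjusted p = 0.0539) for Il18r1, so only Il18rap passed in both. Without a filter 3.65 percent of genes were called higher and 2.76 percent lower. In the read-based fit 7 members were called higher and 0 lower. Il18 and Il1rap did not pass there, with limma-voom adjusted p of 0.892 and 0.997.

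**Figure D2:**
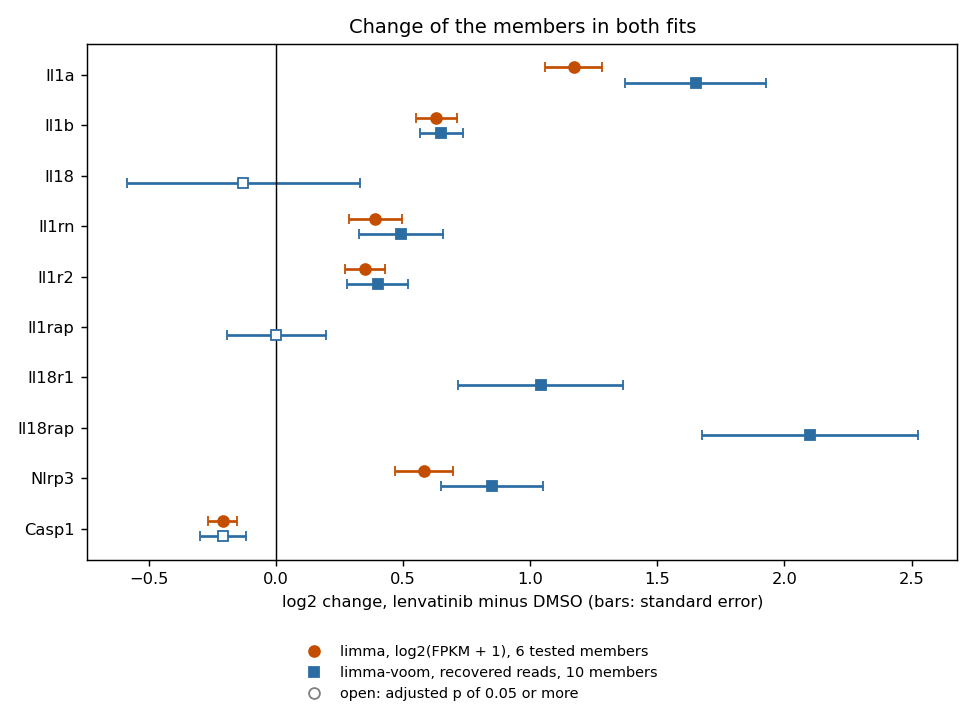
Log2 change (lenvatinib minus DMSO) of the members with its standard error, from limma on log2(scaled FPKM + 1) for the 6 tested members and from limma-voom on recovered reads for all 10. Filled symbols passed an adjusted p of 0.05. Il18rap and Il1a have the largest changes in the read-based fit, 2.1 and 1.65, and Casp1 is filled in one fit only.

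Of the inflammasome members, Nlrp3 encodes the sensor, whose transcription is itself induced by NF-kB signals. Its level was 1.26, 1.57 and 1.64 with DMSO and 2.78, 2.43 and 2.92 with lenvatinib. All lenvatinib libraries were clearly above the DMSO libraries. The log2 change was 0.58 (SE 0.114, limma adjusted p = 0.00779), and the call held when any single library was left out (limma adjusted p from 0.0155 to 0.0313).

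Casp1 encodes the protease that matures interleukin 1 beta and interleukin 18. It was at 24.5, 25.1 and 26.6 with DMSO and at 22.5, 22.6 and 20.6 with lenvatinib. The lenvatinib libraries were all below the DMSO libraries by a small distance. The log2 change was -0.21 (SE 0.0575, limma adjusted p = 0.036). The call was lost when any one of the 6 libraries was left out (limma adjusted p from 0.055 to 0.116) and in the read-based fit (limma-voom adjusted p = 0.0963).

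The order of the levels differed between the groups. With DMSO it ran from Casp1 through Il1b, Il1r2, Il1rn, Nlrp3, Il1a, Il18, Il1rap and Il18r1 to Il18rap. The ranges of neighbours overlapped there only for Nlrp3 and Il1a and for Il18 and Il1rap. With lenvatinib Il1b came first, Il1a moved ahead of Nlrp3, and Il18rap and Il18r1 moved ahead of Il18. In that group Il1rn and Il1a overlapped, and each of Il18rap, Il18r1, Il18 and Il1rap overlapped the next.

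Ratios between 2 members within a library, as log2 of (scaled FPKM + 1), compared how far members moved relative to each other. There were 5 such pairs, and with 3 libraries against 3 the exact permutation test cannot give a two-sided p below 0.1, or below 0.125 after adjustment here. Casp1 to Nlrp3 stood at 3.5, 3.34 and 3.39 with DMSO and at 2.64, 2.78 and 2.46 with lenvatinib, a difference of -0.78 (exact permutation p = 0.1, adjusted p = 0.125). In linear terms Casp1 was 15.9 to 19.4 times as abundant as Nlrp3 with DMSO and 7.05 to 9.31 times with lenvatinib.

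The ratio of Il1a to Il1b was higher in every lenvatinib library, by 0.54 on average, and that of Il18rap to Il18r1 by 0.37. Each of these differences had an exact permutation p of 0.1, the smallest possible, and an adjusted p of 0.125. Their sizes depended on the added constant, and with a constant of 0.1 they were 0.93 and 0.86. Without lenvatinib replicate 3 the difference for Il18rap to Il18r1 was 0.24. For Il18 to Il1b the mean difference was -0.69 (exact permutation p = 0.1, adjusted p = 0.125), but whether the groups overlapped depended on the added constant. In linear terms this ratio was 0.0423, 0.0263 and 0.0359 with DMSO and 0.0288, 0.0236 and 0.0104 with lenvatinib, so the groups overlapped, and with a constant of 0.1 the exact permutation p was 0.2. The antagonist relative to Il1b overlapped between the groups, at -2.18, -2.24 and -2.65 with DMSO and -2.55, -2.6 and -2.63 with lenvatinib (exact permutation p = 0.4). In linear terms Il1rn per Il1b was 0.123 to 0.183 with DMSO and 0.139 to 0.145 with lenvatinib.

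**Figure D3:**
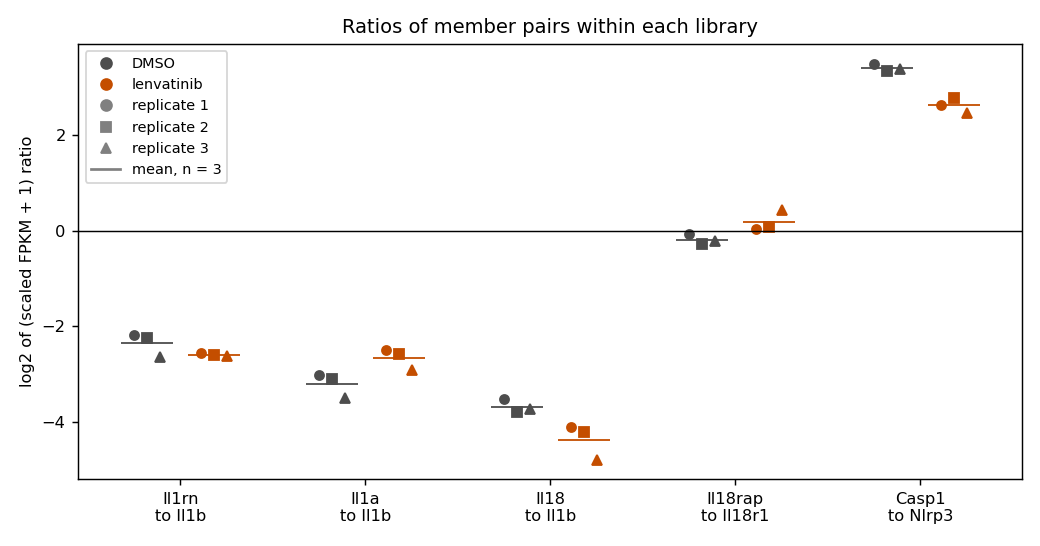
Log2 ratio of (scaled FPKM + 1) for 5 pairs of members in each library, with group means (n = 3). On this scale the groups separate for 4 pairs, among them Casp1 to Nlrp3, and overlap for Il1rn to Il1b, while Il18 to Il1b overlaps on the linear scale.

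Of the members, 3 lie in a row of 6 receptor genes of the family, in the order Il1r2, Il1r1, Il1rl2, Il1rl1, Il18r1 and Il18rap among protein-coding genes of GRCm38.p6. For 5 of these 6 genes every lenvatinib library was above every DMSO library, and for 1 the groups overlapped, where 13.5 percent of genes with any value were higher in this way. The 3 members described above are among the 5. Il1r1, the signalling receptor for both interleukin 1 ligands, rose from 0.936 ± 0.215 to 1.64 ± 0.186 (log2 change 0.45, limma adjusted p = 0.0435), a call lost without a filter on low values (limma adjusted p = 0.0816). Il1rl2, the receptor chain for interleukin 36, was at 0.107 ± 0.0183 and 0.334 ± 0.252, with lenvatinib libraries at 0.213, 0.623 and 0.166. It did not pass without a filter (limma adjusted p = 0.376) or in the read-based fit (limma-voom adjusted p = 0.191). The gene that overlapped was Il1rl1, the interleukin 33 receptor, at 0.136 ± 0.0485 and 0.11 ± 0.0831. Il1rl2 and Il1rl1 were too low for the main test, and neighbouring genes are not independent, so the row was not tested as a group.

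Around the members, 73 further genes of the pathway were listed, of which 66 were in the table and 48 were tested. Of these 9 rose and 5 fell, with a median log2 change of -0.07, beside 0.007 over all tested genes and 0.48 over the 6 tested members. For comparison, 10.4 percent of all tested genes rose and 8.21 percent fell. The lists, like the members, were chosen with earlier results of these data known. In the other ligands, receptors and binding proteins of the family, 1 of 2 tested genes rose, the Il1r1 described above. The other tested gene, Sigirr, did not, at 6.76 ± 0.908 with DMSO and 5.71 ± 0.457 with lenvatinib (limma adjusted p = 0.201). Il18bp, which encodes the secreted inhibitor of interleukin 18, was at 0.802 ± 0.294 and 0.68 ± 0.107 and was not tested.

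Of 15 tested adaptors and kinases 1 rose and 0 fell in the main test. It was Myd88, the adaptor shared by interleukin 1, interleukin 18 and Toll-like receptors, from 22 ± 0.465 to 26.4 ± 0.935 (log2 change 0.25, limma adjusted p = 0.00781). The read-based fit also called Ikbkg and Irak2 lower (limma-voom adjusted p = 0.00157 and 0.0187). Of 14 other tested inflammasome and release genes 1 rose and 2 fell in the main test. The read-based fit also called Naip5 lower (limma-voom adjusted p = 0.0161). It called Nlrp6 higher (limma-voom adjusted p = 0.00897), at 0.00939 ± 0.0163 and 0.177 ± 0.0348, too low for the main test. P2rx7, the ATP-gated channel that triggers NLRP3, rose from 0.666 ± 0.205 to 1.62 ± 0.133. All its DMSO libraries were below 1, so it met the filter through the lenvatinib libraries alone. Txnip, which can bind NLRP3 and also restrains glucose uptake, fell from 514 ± 9.32 to 439 ± 1.52, and Casp8, a protease of cell death pathways, from 29.3 ± 1.41 to 23.5 ± 1.05. Pycard, the adaptor ASC that joins NLRP3 to caspase-1, was at 5.67 ± 0.797 and 6.57 ± 0.779 (limma adjusted p = 0.29). Gsdmd, the pore through which interleukin 1 beta leaves the cell, was at 25.9 ± 0.782 and 24 ± 0.265 (limma adjusted p = 0.173).

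Genes that interleukin 1 is known to induce through NF-kB were mixed, with 6 higher, 3 lower and 8 not called of 17 tested. Ptgs2, the inducible cyclooxygenase, rose from 2.08 ± 0.169 to 4.47 ± 0.199 and the chemokine gene Cxcl2 from 19.4 ± 2.84 to 32.6 ± 2.64. The cytokine genes Il6 and Csf2 rose from 0.376 ± 0.337 to 1.72 ± 0.328 and from 0.273 ± 0.126 to 1.8 ± 0.514. Neither had a DMSO library at 1 or more, so both met the filter through the lenvatinib libraries alone. Those that fell were the inhibitor genes Nfkbia, from 234 ± 3.28 to 213 ± 3.81, and Tnfaip3, from 182 ± 1.5 to 167 ± 1.84, and the survival gene Birc3, from 157 ± 3.97 to 133 ± 0.709. The largest limma adjusted p among these 7 genes was 0.00998. Other signals also induce these genes.

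**Figure D4:**
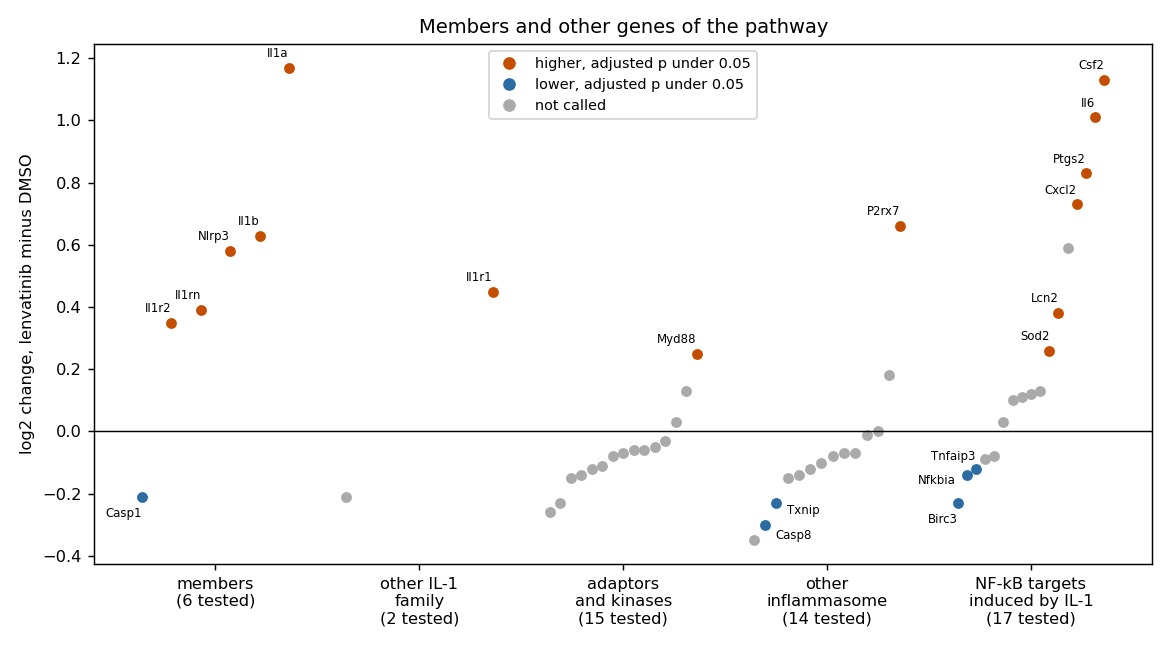
Log2 change (lenvatinib minus DMSO) of the 6 tested members and of the 48 tested pathway genes by list, coloured by the limma call at an adjusted p of 0.05, with called genes named. Among the NF-kB targets 6 genes lie above and 3 below zero with a call, and Il1a at 1.17 and Csf2 at 1.13 are the highest points.

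The libraries also differed in markers of cells other than B cells, which is given here because several of those cells are known sources or targets of these cytokines. B cell markers were abundant in all libraries, with a sum over 10 genes of 2577 to 2627 with DMSO and 2165 to 2214 with lenvatinib, and 9 of 10 fell. The sum over 12 natural killer and ILC1 markers was 32.2 to 38.8 with DMSO and 169 to 176 with lenvatinib, with 10 of 10 tested genes higher. Of these 10, Klrb1c, Klre1 and Klrc1 had every DMSO library below 1 and met the filter through lenvatinib alone. The sum over 13 T cell markers was 130 to 135 and 215 to 223, with 8 of 12 tested genes higher and 1 lower. The lower gene was Cd2, the highest of the list, from 80.3 ± 1.31 to 69.9 ± 4.56. Cd3e rose from 2.6 ± 0.227 to 15.8 ± 0.306, while Cd4, Cd8b1 and Cd5 were not called (limma adjusted p = 0.946, 0.415 and 0.737). Both receptor genes of interleukin 18 were higher in the same libraries as the natural killer and T cell sums. The part of such cells in that result was not tested.

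Markers of myeloid cells moved less evenly. The sum over 14 neutrophil genes was 13.8 to 14 with DMSO and 20.4 to 27.5 with lenvatinib, with 3 of 5 tested genes higher, while 9 genes had both group means below 1. Among them Ly6g, a defining surface marker, was at 0 in all DMSO libraries and at 0.0335, 0.0367 and 0 with lenvatinib. S100a8 stood at 3 ± 1.18 and 4.67 ± 2.05 (limma adjusted p = 0.318), and S100a9, its partner in calprotectin, rose from 2.94 ± 1.51 to 7.26 ± 1.35 (limma adjusted p = 0.0134). The sum over 16 monocyte and macrophage genes was 215 to 228 and 243 to 249, most of it Apoe, with 3 of 10 tested genes higher and 1 lower, and without Apoe the groups overlapped at 77.3 to 83.4 and 82.9 to 90.3. Cd14 rose from 11.6 ± 1 to 15.5 ± 1.29, Csf1r was at 1.73 ± 0.231 and 1.83 ± 0.126, and Ly6c2 fell from 18.2 ± 1.15 to 10.9 ± 1.01. The part of such cells in the levels of Il1a, Il1b, Il1rn, Il1r2 and Nlrp3 was not tested.

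Of 16 colon epithelial markers, a cell type that also makes interleukin 18, 10 of 10 tested genes were higher, and their sum was 16.6 to 18 with DMSO and 79.7 to 86.5 with lenvatinib. Of the 10, 5 had every DMSO library below 1 and met the filter through lenvatinib alone, namely Krt8, Krt19, Cdh1, Zg16 and Guca2a. Il18 overlapped between the groups in the same libraries, on 28 to 77 reads per library. The part of epithelial cells in its level was not tested. The sum over 10 ILC3 markers was 29.7 to 30.8 and 46.3 to 48.6, with 5 of 6 tested genes higher, 1 of them, Cxcr6, tested through lenvatinib alone, and Il1r1 is one of that list. Il17a of that list and the erythroid gene Alas2 were at 0 in all DMSO libraries. Several other sums followed 1 gene each, as leaving out the gene whose group means differed most showed. The conventional dendritic cell sum was 158 to 164 with DMSO and 136 to 143 with lenvatinib, but 7.74 to 10.3 and 15.3 to 19.2 without Irf8, which B cells also express. Of 6 tested genes of that list only Itgae was called higher, from 1.3 ± 0.23 to 7.13 ± 0.443, and Irf8 lower. Flt3, Zbtb46 and Itgax were not called (limma adjusted p = 0.0598, 0.871 and 0.206). The plasma cell sum was 369 to 375 and 345 to 360, but 231 to 239 and 240 to 256 without Irf4, and Jchain of that list rose. The endothelial sum was 42.9 to 44.2 and 35.1 to 35.3, but 1.21 to 1.43 and 2.14 to 2.58 without Pecam1. The mast cell and basophil sum was 3.27 to 4 and 8.72 to 10.2, but 1.42 to 2.4 and 0.61 to 1.99 without Kit, which is also in the ILC3 list, and Mcpt4 and Cma1 were at 0 in all lenvatinib libraries. The fibroblast and smooth muscle sum was 2.6 to 3.55 and 4.7 to 5.21, but 1.77 to 2.94 and 2.61 to 3.47 without Acta2. The erythroid sum was 4.17 to 6.25 and 9.66 to 15.

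**Figure D5:**
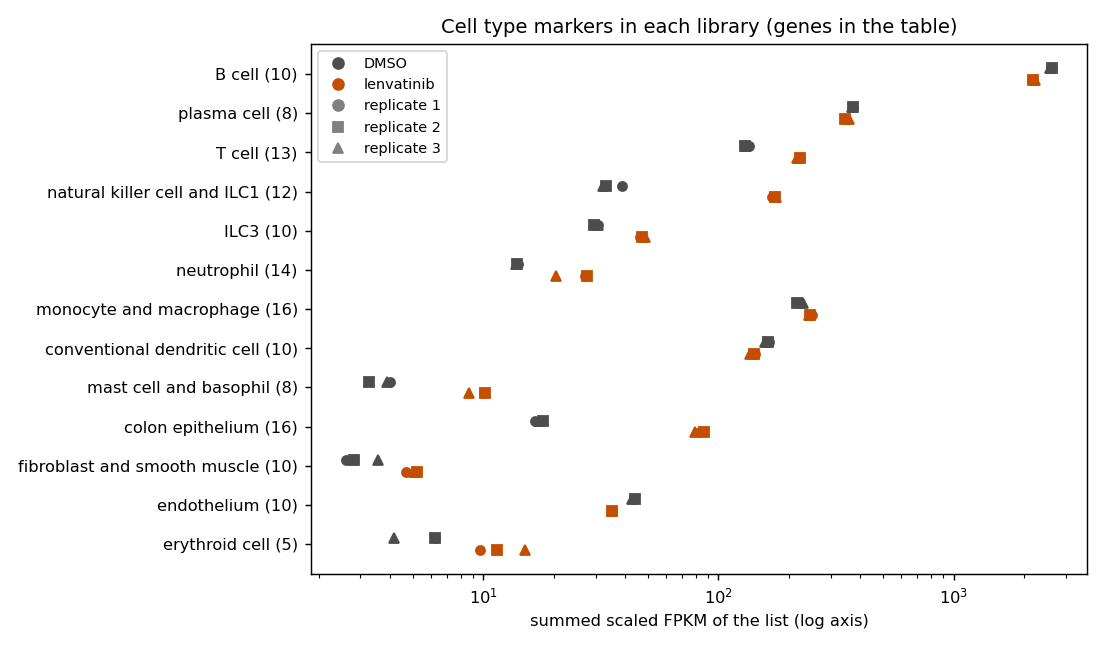
Summed scaled FPKM of 13 marker lists in each library on a log axis, with the number of listed genes in the table in brackets. The sum is higher in all lenvatinib libraries for natural killer cells, T cells, colon epithelium and neutrophils, and lower for B cells. It is also higher for ILC3, monocytes and macrophages, mast cells, fibroblasts and erythroid cells, and lower for dendritic cells, plasma cells and endothelium. The sums of dendritic cells, plasma cells, endothelium and mast cells each follow 1 gene. The groups also overlap for monocytes and macrophages without Apoe and for fibroblasts without Acta2.

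For each member that passed, the 3 tested genes closest to it over the 6 libraries were taken by the root mean square difference of log2 values centred on each gene's mean, as a description. Closest to Il1a were the adenosine receptor gene Adora2a, the T cell adaptor gene Fyb and the kallikrein gene Klk8, at distances of 0.079, 0.093 and 0.104. Adora2a was at 4.76 ± 0.853 and 12.2 ± 1.49. Closest to Il1b were Msto1, Cd63 and Rrp15, at 0.075, 0.079 and 0.079. For Nlrp3 they were Ppp1r14b, Gon7 and Lzic, at 0.063, 0.064 and 0.069. For Il1rn they were Pomp, Sord and Bhlhb9, at 0.043, 0.051 and 0.051, and for Il1r2 Med20, Flt3 and Rasgrp4, at 0.031, 0.032 and 0.036. For Casp1 they were Pced1a, Lmbrd1 and Map3k4, at 0.017, 0.024 and 0.025. Smaller distances go with smaller changes, so they cannot be compared between members. Klk8 and Rasgrp4 had DMSO means of 0.659 ± 0.073 and 0.747 ± 0.0603, below the filter level of 1. They therefore met the filter through the lenvatinib libraries. Sord, Flt3, Rasgrp4, Pced1a and Map3k4 were not themselves called (limma adjusted p from 0.0598 to 0.151). Whether any of these genes is regulated together with a member was not tested.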

How the data were processed

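RNA of B cells sorted from mouse colons was sequenced in 6 libraries. HTSeq and build GRCm39 are named in the submitters' processing notes. The aligner, annotation, versions and strandedness are not given in the sources used here. What the authors deposited is one FPKM table, whose columns were assigned through their names.

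FPKM values were scaled by median-of-ratios factors, 0.992 to 1.009, and the 9937 genes that reached 1 in 3 or more libraries were tested. The log2(scaled FPKM + 1) values entered a treatment-only model in limma 3.58.1 (R 4.3.3, trend and robust moderation), two-sided, with Benjamini-Hochberg adjustment over all tested genes. Whole reads were recovered from the FPKM steps for 19697 of 19715 genes with any value (tolerance 1e-07), with gene lengths that equalled the annotated ones for 13 of 13 mitochondrial genes, and served for limma-voom. Replicates of a group differed by more than counting noise, with a chi-square per gene of 6.85 to 9.45. Ratios used exact permutation tests in scipy 1.17.1. The procedures were tested on simulated data.

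The members and gene lists were chosen with earlier results of these data known. The genes named are the 10 members, per pathway list up to 4 called genes per direction with the smallest p, the counterparts Il1r1, Il18bp, Pycard, Gsdmd and Myd88, and the 3 genes closest to each called member. Marker genes named singly were chosen after their values were seen, as were Il1rl1, Il1rl2, Sigirr, Ikbkg, Irak2, Naip5 and Nlrp6. Alternatives were other pseudocounts, filters and scalings, a replicate term, unmoderated and weighted fits, limma-voom and leaving out each library.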

Additional observations from a re-analysis of the deposited data

How the results depend on the processing

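Il1a, Il1b, Il1r2 and Nlrp3 kept direction and call under all 18 alternatives tried for them. Il1rn kept its direction in 18 and its call in 12, and Casp1 its direction in 18 and its call in 6. Il1rn did not pass without a filter on low values (0.39, limma adjusted p = 0.0785). With single libraries left out the log2 change of Il1rn was 0.31 to 0.45 and that of Casp1 -0.23 to -0.16. Casp1 did not pass without a filter (-0.21, limma adjusted p = 0.0868), with FPKM as deposited (-0.19, adjusted p = 0.0524), without trend and robust moderation (-0.21, adjusted p = 0.0723) or in limma-voom with either filter (-0.21, adjusted p = 0.0885 and 0.0963). The number of members called lower was then 0 in place of 1, as in every fit with a library left out (0 to 0); the cause was not tested.

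Whether replicate numbers pair the libraries is not stated in the labels. Deviations of same-numbered libraries correlated at -0.007, 0.006 and -0.005 across genes, and 2 of 6 libraries were closest to their own number. No sign of pairing was seen in this, but with 3 libraries per group it cannot exclude a pairing. With a replicate block, 894 genes were called higher and 648 lower, in place of 1038 and 816. In that fit with the replicate block Il1rn (0.39, limma adjusted p = 0.0677) and Casp1 (-0.21, limma adjusted p = 0.0783) did not pass, which left 4 members called higher and 0 lower.

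The low levels of the interleukin 18 receptor genes made their log2 difference depend on the pseudocount by its construction. It was 0.59 and 0.91 for Il18r1 and 1.12 and 1.77 for Il18rap with pseudocounts of 0.5 and 0.1, and 1.04 and 2.1 in the added read-based fit. Without single libraries it was 0.37 to 0.46 and 0.62 to 0.87. Pathway genes called lower numbered 8 in limma-voom with either filter, in place of 5. Without single libraries, Il18 ranged from -0.16 to 0.08. Among ratios, Il1a to Il1b was 0.4 to 0.66 and Il18rap to Il18r1 0.24 to 0.45 without single libraries. Marker sums without 1 gene each were added after the data had been seen.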
